A study of Mus musculus with 42 samples.

Results

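The genes described here are the MAP kinase phosphatases Dusp1, Dusp2, Dusp3, Dusp4, Dusp5, Dusp6, Dusp7, Dusp10 and Dusp16 and the Ras inhibitor Spred1, with Dusp6 as the main one. They are 10 of the 54532 genes in the count table, found by gene name, and they were followed over all 12 groups of the study. The members were chosen by measured values, above all the lower Dusp6 level 4 h after β-glucan in aged and young cells, so that contrast is described below without a test. All 10 passed the filter on low counts.

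RNA sequencing was done on macrophages grown from whole bone marrow with M-CSF, the growth factor that acts through the receptor Csf1r. The donors were male wild-type C57BL/6 mice, 18 to 20 months old in the aged groups and 10 to 12 weeks old in the young groups. β-glucan, a fungal cell wall sugar used to train innate immune cells, was given at 5 µg/mL, and LPS, the bacterial ligand of Tlr4, at 100 ng/mL for 4 h. At each age, primed LPS cells had 24 h of β-glucan and LPS in the 4 h before collection on day 3. Naive LPS cells had LPS for 4 h with no β-glucan, and no collection day is given for them. The β-glucan groups were collected at 4 h, at 24 h, or on day 3 after 24 h of exposure. Control cells had 24 h of 0.1% normal saline and were also collected on day 3. Time in culture and β-glucan therefore cannot be told apart in the 4 h and 24 h groups. Whether naive LPS cells match control or primed LPS cells in time in culture is not known. Each group held 3 libraries except young naive LPS and young control, which held 6, in a set numbered 1 to 3 and a set numbered 4 to 6. The labels describe biological replicates and no sort of the cells.

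MAP kinases carry signals from surface receptors through a cascade of phosphorylations. In macrophages the Csf1r pathway reaches ERK through Ras and Raf, and Tlr4 activates ERK, JNK and p38. Dual-specificity phosphatases switch MAP kinases off again by removing phosphates from both a threonine and a tyrosine, and many of their genes are themselves induced by the kinases they restrain. Dusp6 and Dusp7 are cytoplasmic phosphatases of ERK, and Dusp5 is a nuclear one. Dusp1, Dusp2 and Dusp4 act in the nucleus, Dusp1 mainly on p38 and JNK. Dusp10 and Dusp16 act mainly on JNK and p38. Dusp3 is a small phosphatase of ERK and JNK that lacks the kinase-binding domain of the others. Spred1 works upstream of ERK, at the membrane, where it brings the GTPase-activating protein neurofibromin to Ras.

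In mm10 coordinates and with the identifiers of the count table, Dusp7 (ENSMUSG00000053716) lies on chromosome 9 at 106368632 to 106375724, Dusp3 (ENSMUSG00000003518) on chromosome 11 at 101971143 to 101987013 and Dusp5 (ENSMUSG00000034765) on chromosome 19 at 53529109 to 53542431. Dusp2 (ENSMUSG00000027368) lies on chromosome 2 at 127336159 to 127338376, and Spred1 (ENSMUSG00000027351) on the same chromosome at 117121374 to 117182279. Dusp1 (ENSMUSG00000024190) lies on chromosome 17 at 26505590 to 26508519, Dusp4 (ENSMUSG00000031530) on chromosome 8 at 34807297 to 34819894, Dusp10 (ENSMUSG00000039384) on chromosome 1 at 184013302 to 184075636 and Dusp16 (ENSMUSG00000030203) on chromosome 6 at 134715468 to 134792625.

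The promoters of Dusp6 and Dusp7, the 2 members with the largest falls under LPS, and of Dusp2, with the largest rise, are given first, followed by Dusp1 and Dusp5, the members whose promoters held a searched motif. They come from RefSeq (GRCm38.p6) and run 5′ to 3′ on the gene's strand, for Dusp6, Dusp7 and Dusp2 up to the last base before the RefSeq start. Bases inside the gene as annotated for the counts were left out of Dusp1 and Dusp5, which leaves 203 and 214 of the 250 bases upstream. Their printed sequences thus end 47 and 36 bases before the RefSeq start. Dusp6 is at chr10:99262981-99263230 (+), Dusp7 at chr9:106368382-106368631 (+), Dusp2 at chr2:127335909-127336158 (+), Dusp1 at chr17:26508520-26508722 (-) and Dusp5 at chr19:53528895-53529108 (+). Capitals mark CRE cores in Dusp1, and a CRE core and 2 adjoining CArG boxes in Dusp5.
Dusp6 promoter: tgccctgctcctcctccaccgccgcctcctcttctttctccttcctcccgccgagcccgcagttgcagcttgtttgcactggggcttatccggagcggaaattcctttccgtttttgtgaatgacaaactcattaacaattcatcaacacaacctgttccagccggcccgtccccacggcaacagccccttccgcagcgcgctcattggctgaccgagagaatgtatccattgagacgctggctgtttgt
Dusp7 promoter: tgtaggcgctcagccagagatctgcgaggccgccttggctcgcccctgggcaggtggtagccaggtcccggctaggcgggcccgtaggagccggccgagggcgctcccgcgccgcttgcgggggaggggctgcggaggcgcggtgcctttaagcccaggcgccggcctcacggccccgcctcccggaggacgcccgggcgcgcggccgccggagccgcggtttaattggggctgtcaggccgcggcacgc
Dusp2 promoter: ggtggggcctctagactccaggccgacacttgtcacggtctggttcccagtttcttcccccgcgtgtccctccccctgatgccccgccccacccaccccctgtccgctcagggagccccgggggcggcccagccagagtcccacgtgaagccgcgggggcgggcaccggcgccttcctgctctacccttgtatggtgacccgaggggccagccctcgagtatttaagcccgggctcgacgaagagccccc
Dusp1 promoter: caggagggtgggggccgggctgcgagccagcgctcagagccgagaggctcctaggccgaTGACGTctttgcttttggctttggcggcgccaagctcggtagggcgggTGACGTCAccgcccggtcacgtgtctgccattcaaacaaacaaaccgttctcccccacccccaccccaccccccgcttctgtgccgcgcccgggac
Dusp5 promoter: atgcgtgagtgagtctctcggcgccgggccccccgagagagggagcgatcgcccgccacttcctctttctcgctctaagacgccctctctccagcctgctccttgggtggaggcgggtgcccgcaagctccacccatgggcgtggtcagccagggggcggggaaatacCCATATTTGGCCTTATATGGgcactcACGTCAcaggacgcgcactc

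Both strands of the 250 bases upstream of each start were searched for the AP-1 site TGANTCA, the CRE core TGACGT, the ETS core CCGGAA, the NF-κB site and the CArG box. Of 32851 RefSeq promoters searched over the same length, 6.75% held the AP-1 site, 6.47% the CRE core, 12% the ETS core, 3.9% the NF-κB site and 1.47% the CArG box. Of the 10 members, 9 had a promoter in the table, Dusp4 not among them. Dusp1 held 3 CRE cores, at -191 to -186, -143 to -138 and -141 to -136 from its RefSeq start. The last of these overlaps the one before it on the other strand. Dusp5 held a CRE core at -56 to -51 and CArG boxes at -82 to -73 and -72 to -63, counted likewise. For Dusp3 and Dusp10 the whole window lay inside the gene as annotated for the counts. The windows of Dusp6, Dusp7, Dusp2, Dusp3, Dusp10, Dusp16 and Spred1 held none of the 5 motifs. These letters are absent from those windows, which says nothing of binding elsewhere.

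The libraries held 39850835 to 67347866 counts. Levels are CPM, the counts of a gene relative to the counts of its library, and scaled by TMM, a method that assumes most genes keep their level. The TMM factors were 0.667 to 0.777 in the 15 libraries with LPS and 1.13 to 1.28 in the 27 without. Under plain scaling by total counts, the median log2 change of all 17648 tested genes was -0.90 in young and -0.82 in aged naive LPS cells against control, where TMM gave -0.10 and -0.08. All 14 macrophage markers were present, and Csf1r ranged from 1178 to 2757 CPM. Summed fibroblast and stromal markers, led by Col1a2 with Lum, Thy1 or Lepr at 0 in some groups, were 57.6 to 193 CPM in aged and 30.1 to 162 CPM in young libraries. Summed neutrophil, B cell, T and NK cell, and dendritic cell markers stayed below 20 CPM. The mast cell and basophil sum reached 201 CPM with LPS through Hdc, with Mcpt4, Fcer1a and Tpsb2 at 0. The part of these cells in the results was not tested.

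Dusp6 (ENSMUSG00000019960, mm10 chromosome 10, 99263231 to 99267489, plus strand) had the highest mean level per kilobase of gene model of the 9 phosphatases in control cells. That level was 43.6 CPM per kilobase in aged and 43.8 in young control cells, with Dusp1 next at 36.6 and 41.1. With naive LPS it was 5.19 CPM per kilobase in aged and 5.02 in young cells. Its order over the groups was the same at both ages: control, then β-glucan day 3, 24 h and 4 h, then both LPS groups. The neighbours primed LPS and naive LPS overlapped at both ages, as did day 3 and 24 h in aged cells and day 3 and control in young cells. Young 24 h libraries all lay below the young day 3 ones, and 4 h libraries lay below 24 h ones at both ages. In bulk RNA, fewer cells that express a gene and less of its RNA per cell cannot be told apart.

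**Figure D1:**
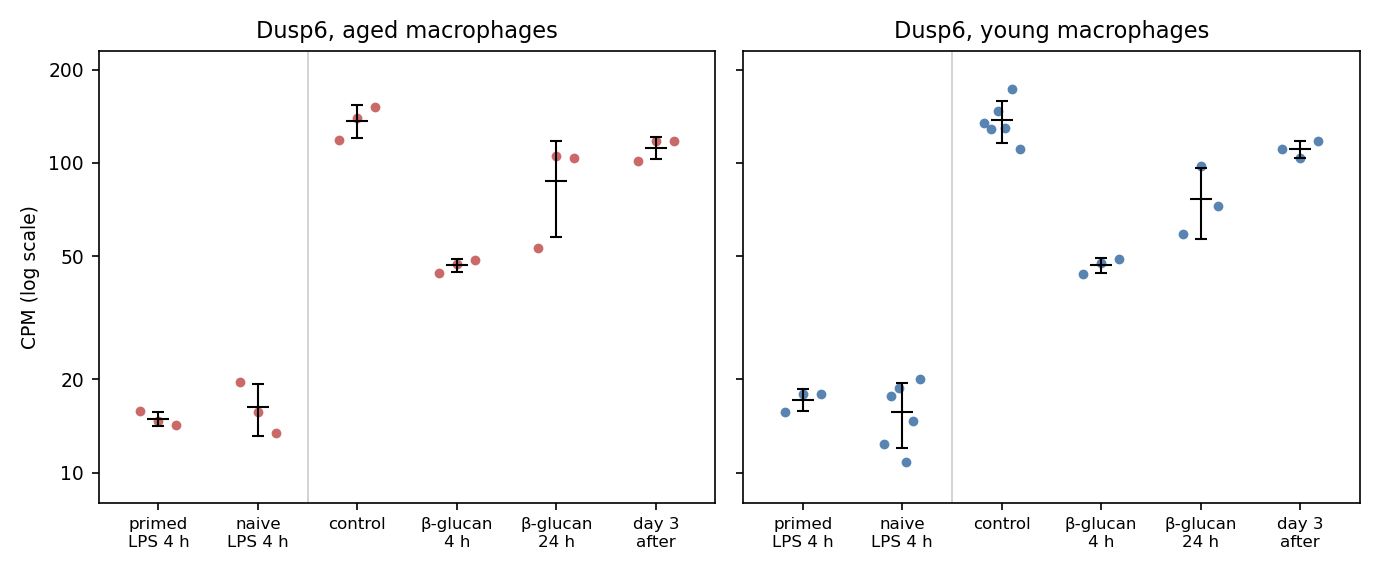
Dusp6 level in each library (points) as CPM on a log axis, with the mean and SD of each group, aged groups in the left panel and young groups in the right. At both ages the LPS libraries lie between 10.9 and 20.1 CPM and the controls between 111 and 173 CPM.

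At 4 h after β-glucan, the contrast on which Dusp6 was chosen, its level was 44.2, 47.3 and 48.5 CPM in aged cells, against 119, 140 and 151 CPM in aged control cells. The young values were 43.9, 47.6 and 49.0 CPM at 4 h, against 111 to 173 CPM (median 132) in control cells. The groups did not overlap at either age. The fitted log2 difference was -1.55 ± 0.21 in aged and -1.57 ± 0.20 in young cells (standard error), with no test made. Dusp7 was the only other member whose fitted value was below 0, at -0.46 ± 0.14 in aged and -0.57 ± 0.13 in young cells.

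The remaining members had fitted values above 0 at 4 h. Dusp2, an immune cell phosphatase, was at 28.3, 19.5 and 46.9 CPM in aged 4 h cells, against 6.83, 10.3 and 9.37 CPM in aged control cells. In young cells Dusp2 was at 21.2, 24.7 and 39.4 CPM at 4 h, against 5.17 to 15.9 CPM (median 7.18) in control cells. Dusp2 varied more among 4 h libraries than Dusp6 did, but no 4 h library reached down to a control library. Dusp4 had the next highest value, 1.40 ± 0.20 in aged and 1.39 ± 0.19 in young cells, followed by Dusp1 at 1.21 ± 0.31 and 1.01 ± 0.29 in the same order of ages. Dusp16 stood at 0.85 ± 0.15 in aged and 1.15 ± 0.13 in young cells, Spred1 at 0.45 ± 0.099 and 0.48 ± 0.091. Dusp3 stood at 0.12 ± 0.087 in aged and 0.21 ± 0.081 in young cells. Its lowest aged 4 h library, at 158.66 CPM, barely cleared the highest aged control, at 158.60 CPM. The 4 h and control libraries overlapped for Dusp10 at both ages and for Dusp5 in aged cells, and for no other member. The share of all genes without such overlap was not counted. No sign changed under total-count scaling.

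LPS was the treatment under which the members spread farthest apart. In naive LPS cells against control, 9 of 10 members passed edgeR's quasi-likelihood test in aged cells, 5 higher and 4 lower, where 55.5% of all tested genes passed, 26.6% higher and 28.9% lower. In young cells 8 of 10 passed, 5 higher and 3 lower, where 65% of all tested genes passed, 30.3% higher and 34.7% lower. Under total-count scaling the split was 3 higher and 4 lower in aged and 3 higher and 5 lower in young cells. With backgrounds this high, the sizes and directions tell more than the counts. Dusp6, Dusp7 and Dusp3 fell, and Dusp2, Dusp16 and Spred1 rose, at both ages and under both TMM and total-count scaling. The controls here are those of the 4 h contrast, so the Dusp6 values are not independent of its choice.

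Dusp6 was at 19.6, 15.7 and 13.5 CPM in aged naive LPS cells, against 119, 140 and 151 CPM in aged control cells. In young cells it was at 10.9 to 20.1 CPM (median 16.2) with naive LPS, against 111 to 173 CPM (median 132) in control cells. The groups were far apart at both ages, with no LPS library above 20.1 CPM. The log2 change was -3.07 ± 0.22 in aged cells, 8.42-fold lower (edgeR adjusted p = 1e-13), and -3.12 ± 0.16 in young cells, 8.7-fold lower (edgeR adjusted p = 4.1e-18). Dusp7, the other cytoplasmic ERK phosphatase, was at 15.4, 10.7 and 13.4 CPM in aged naive LPS cells, against 84.2, 84.1 and 109 CPM in aged control cells. In young cells Dusp7 was at 8.07 to 15.4 CPM (median 12.0) with naive LPS, against 84.8 to 116 CPM (median 97.6) in control cells. It thus fell about as far as Dusp6, by 2.81 ± 0.15 in aged and 3.06 ± 0.11 in young cells on the log2 scale (edgeR adjusted p = 5.63e-19 and 2.78e-25). Dusp3 fell less, by 1.32 ± 0.089 in aged and 1.48 ± 0.064 in young cells (edgeR adjusted p = 1.2e-16 and 1.32e-23), with no overlap between LPS and control libraries.

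Dusp2 rose most. It was at 238, 224 and 263 CPM in aged naive LPS cells, against 6.83, 10.3 and 9.37 CPM in aged control cells. Young cells had 254 to 696 CPM (median 391) with naive LPS, against 5.17 to 15.9 CPM (median 7.18) in control cells. The young replicates 4 to 6 held the highest values, 461 to 696 CPM, and replicates 1 to 3 had 254 to 320 CPM. The rise was 27.3-fold in aged cells (log2 4.77 ± 0.33, edgeR adjusted p = 6.15e-14) and 49.2-fold in young cells (log2 5.62 ± 0.24, edgeR adjusted p = 1.84e-19). Dusp2 differed between the young sets, replicates 4 to 6 standing above replicates 1 to 3 by 0.90 on the log2 scale (edgeR adjusted p = 0.00291).

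Dusp16, the JNK and p38 phosphatase, was at 97.5, 94.3 and 96.4 CPM in aged naive LPS cells, against 14.8, 10.7 and 11.4 CPM in aged control cells. Young naive LPS cells had 119 to 156 CPM (median 135) of Dusp16, against 9.82 to 15.5 CPM (median 12.8) in control cells. Its rise was 7.82-fold in aged and 10.7-fold in young cells (log2 2.97 ± 0.15 and 3.42 ± 0.11, edgeR adjusted p = 3.26e-20 and 1.33e-27). Spred1 was at 949, 761 and 782 CPM in aged naive LPS cells, against 207, 199 and 177 CPM in aged control cells. In young cells Spred1 was at 803 to 898 CPM (median 845) with naive LPS, against 143 to 230 CPM (median 196) in control cells. The Spred1 libraries were close together within each group, and the rise was 4.27-fold in aged and 4.46-fold in young cells (log2 2.10 ± 0.10 and 2.16 ± 0.073, edgeR adjusted p = 2.92e-21 and 2.09e-27).

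The other 4 members gave smaller or less steady values. Dusp4 was at 81.7, 87.1 and 80.4 CPM in aged naive LPS cells, against 36.5, 34.4 and 42.2 CPM in aged control cells, a rise of 1.14 ± 0.20 on the log2 scale (edgeR adjusted p = 1.4e-05). In young cells it was at 47.5 to 84.2 CPM (median 69.4) with naive LPS, against 23.6 to 59.0 CPM (median 33.4) in control cells, a rise of 0.85 ± 0.15 (edgeR adjusted p = 4.29e-06) despite 1 control library, replicate 5, inside the LPS range. Dusp1 rose by 0.77 ± 0.30 in aged and 0.50 ± 0.22 in young cells (edgeR adjusted p = 0.0316 and 0.0423), with overlapping young libraries. Under total-count scaling neither Dusp1 nor Dusp4 kept its call: Dusp1 was at 0.03 in aged and turned to -0.29 in young cells, and Dusp4 was at 0.40 and 0.06. Dusp1 passed in 7 of 13 settings tried in aged cells and 6 of 20 in young cells.

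Dusp5, the nuclear ERK phosphatase, was at 4.04, 4.33 and 4.13 CPM in aged naive LPS cells, against 5.87, 8.67 and 6.83 CPM in aged control cells, a fall of 0.77 ± 0.27 on the log2 scale (edgeR adjusted p = 0.0147). Without aged control replicate 2 the value was -0.61 and no longer passed. In young naive LPS cells Dusp5 was split by set, at 7.87 to 11.7 CPM in replicates 4 to 6 and 3.67 to 5.56 CPM in replicates 1 to 3. Over both sets its log2 value was 0.10 ± 0.19 (edgeR adjusted p = 0.681), replicates 4 to 6 alone gave 0.72 (edgeR adjusted p = 0.0225), and leaving them out gave -0.56 (edgeR adjusted p = 0.0318). Dusp10 stayed between 0.669 and 3.45 CPM in all libraries and did not pass with naive LPS at either age.

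**Figure D2:**
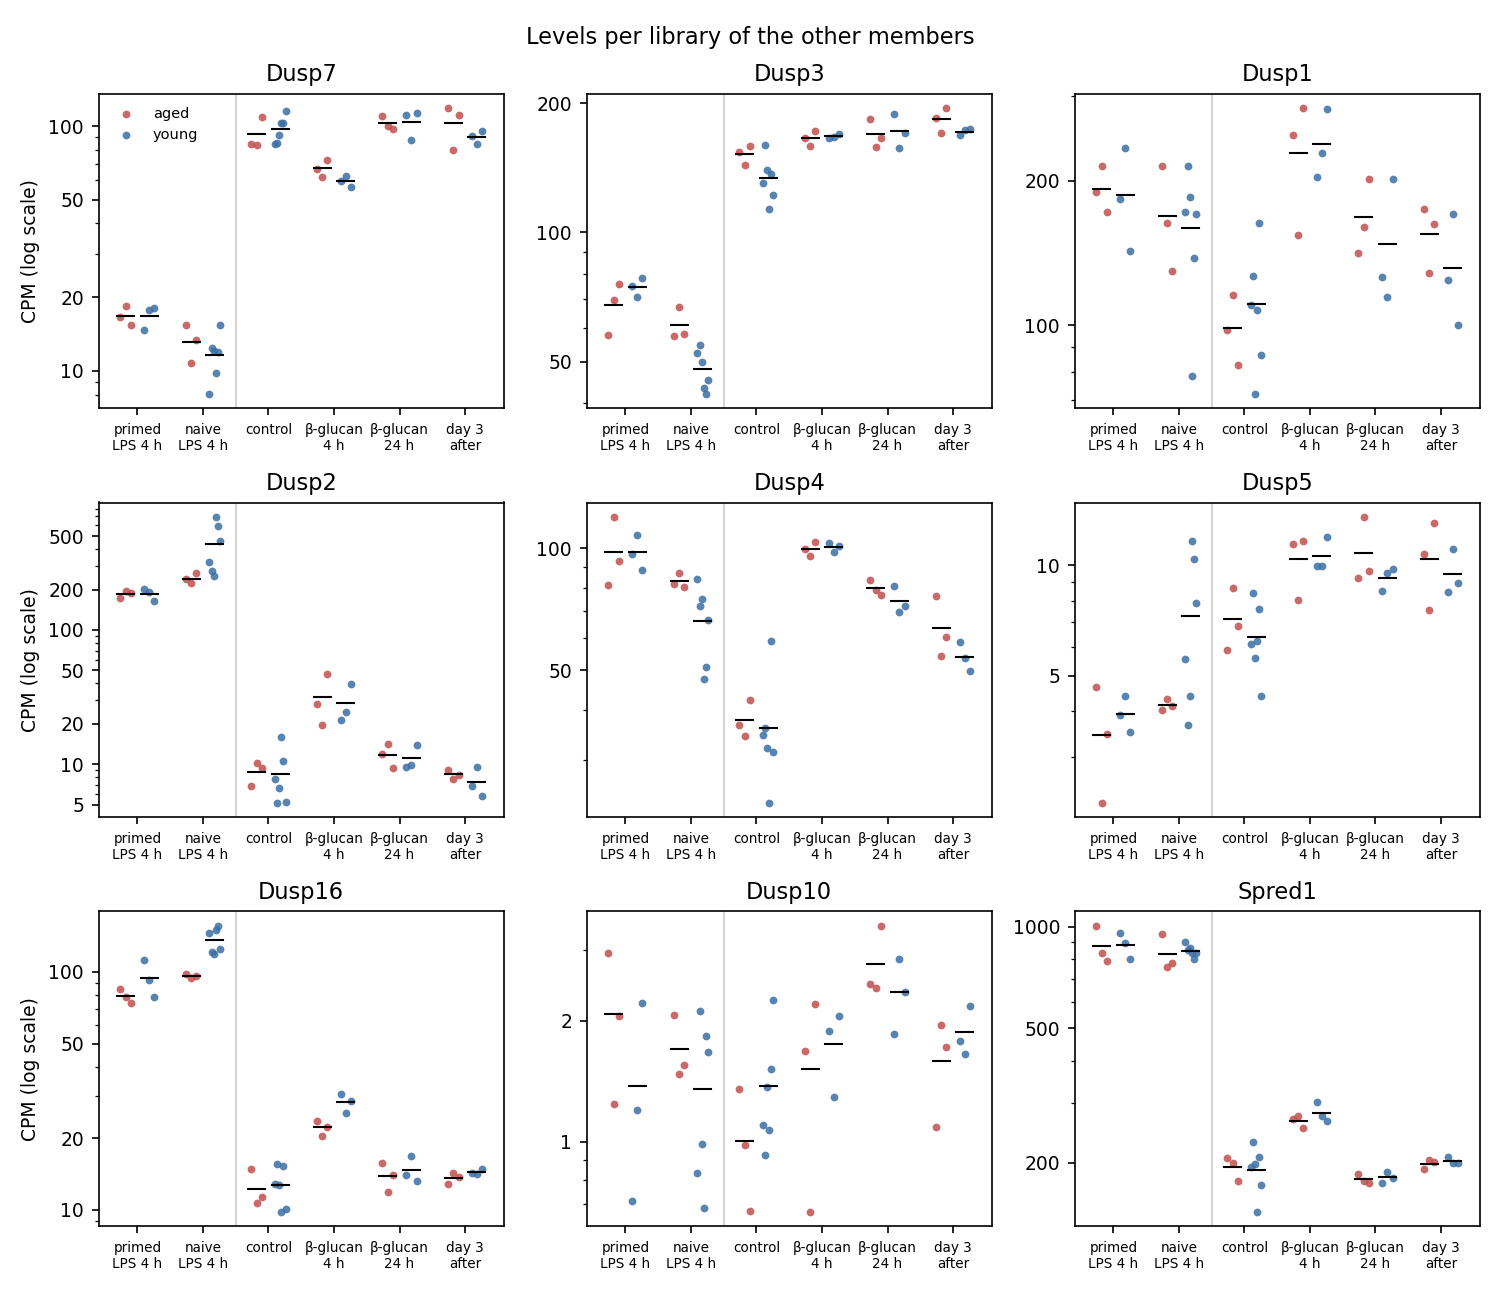
Level of the other 9 genes in each library (points) as CPM on a log axis, 1 panel per gene, with bars at the group means and aged and young groups side by side. Dusp2, Dusp16 and Spred1 are highest in the LPS groups, and Dusp7 and Dusp3 are lowest there.

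Cells that had β-glucan before LPS gave a comparison with no library in common with the 4 h contrast. In primed LPS against β-glucan day 3 cells, 8 of 10 members passed at each age, 4 higher and 4 lower, where 52.2% of all tested genes passed in aged cells, 24.8% higher and 27.4% lower, and 51.7% in young cells, 24.9% higher and 26.7% lower. Total-count scaling gave 3 higher and 4 lower in aged and 3 higher and 5 lower in young cells. Dusp6 was at 15.9, 14.6 and 14.3 CPM in aged primed LPS cells, against 101, 117 and 117 CPM in aged day 3 cells. It was at 15.7, 18.0 and 18.0 CPM in young primed LPS cells, against 111, 104 and 117 CPM in young day 3 cells. No primed library came near a day 3 library, and Dusp6 fell by 2.91 ± 0.22 in aged and 2.68 ± 0.22 in young cells on the log2 scale (edgeR adjusted p = 4.58e-13 and 2.58e-12). Dusp7 fell by 2.62 ± 0.15 in aged and 2.43 ± 0.15 in young cells, and Dusp3 by 1.44 ± 0.090 and 1.20 ± 0.089 at the same ages. Dusp5, unsettled with naive LPS, fell at both ages, by 1.60 ± 0.28 in aged and 1.27 ± 0.27 in young cells (edgeR adjusted p = 4.47e-06 and 0.000131). Its libraries were at 4.66, 2.25 and 3.46 CPM in aged primed LPS cells, against 10.7, 7.57 and 13 CPM in aged day 3 cells.

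Dusp2 was at 172, 194 and 188 CPM in aged primed LPS cells, against 9.07, 7.72 and 8.38 CPM in aged day 3 cells. In young cells it was at 202, 191 and 165 CPM with primed LPS, against 6.87, 9.58 and 5.85 CPM on day 3. These were rises of 22-fold in aged and 24.9-fold in young cells (log2 4.46 ± 0.32 and 4.64 ± 0.33, edgeR adjusted p = 3.04e-13 and 1.49e-13). Dusp16 rose by 2.54 ± 0.15 in aged and 2.71 ± 0.15 in young cells, and Spred1 by 2.14 ± 0.10 and 2.13 ± 0.10 at the same ages. Dusp4 rose by 0.62 ± 0.20 in aged and 0.85 ± 0.20 in young cells (edgeR adjusted p = 0.00984 and 0.000568), the aged call being lost without aged day 3 replicate 2 or aged primed LPS replicate 2 and its sign turning to -0.032 under total-count scaling. The young call was lost under total-count scaling too, at 0.18 (edgeR adjusted p = 0.46). Dusp1 did not pass, at 0.31 ± 0.30 in aged and 0.50 ± 0.30 in young cells. Its sign was not steady over 13 settings, with values from -0.35 to 0.40 in aged and from -0.17 to 0.73 in young cells.

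**Figure D3:**
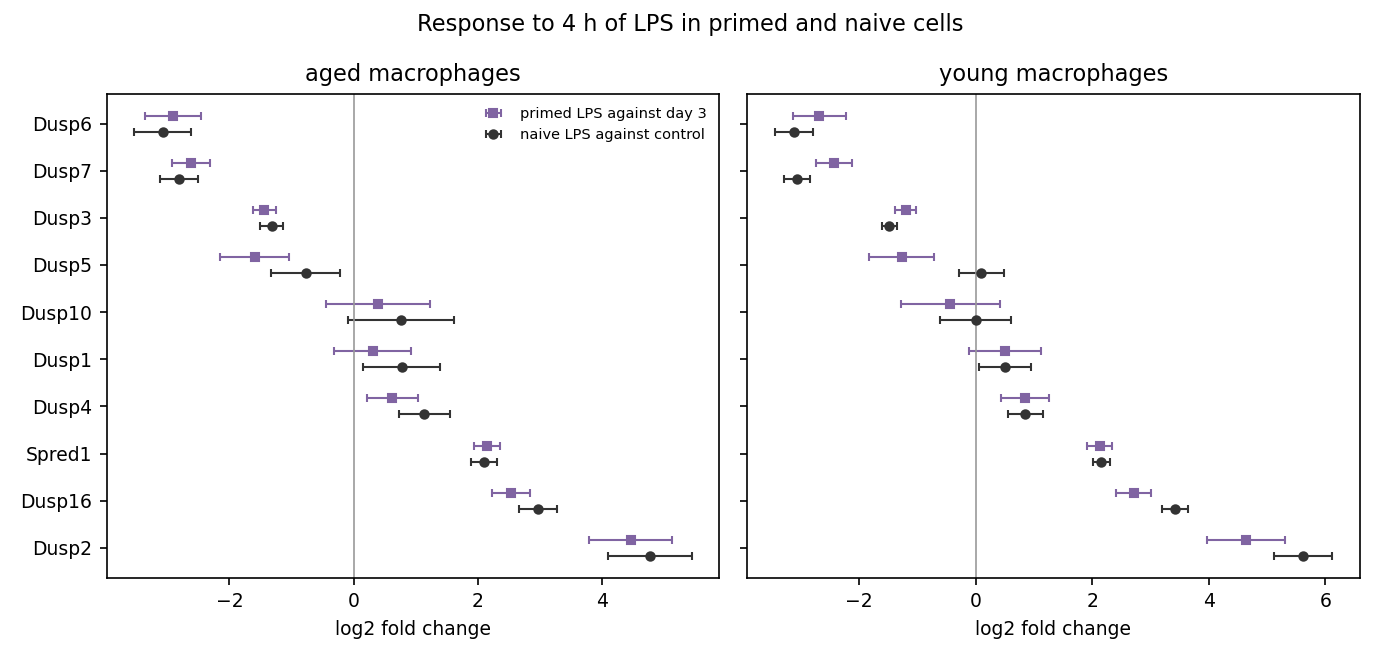
Log2 change with LPS for each of the 10 genes with its 95% interval, squares for primed LPS against β-glucan day 3 and circles for naive LPS against control, aged and young cells in separate panels. Dusp6, Dusp7 and Dusp3 lie below 0 and Dusp2, Dusp16 and Spred1 above 0 in all 4 comparisons.

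Set directly against naive LPS, the primed LPS level differed for 3 of 10 members in young cells, 2 higher and 1 lower, where 3.61% of all tested genes passed, 2.44% higher and 1.17% lower. Dusp3 was at 74.9, 70.7 and 78.4 CPM in young primed LPS cells, against 42.1 to 54.8 CPM (median 47.6) in young naive LPS cells, and was higher by 0.53 ± 0.083 on the log2 scale (edgeR adjusted p = 7.32e-05). Dusp7 was at 14.7, 17.7 and 18.0 CPM in young primed LPS cells, against 8.07 to 15.4 CPM (median 12.0) in young naive LPS cells, higher by 0.66 ± 0.14 (edgeR adjusted p = 0.00416). Dusp3 showed no overlap, while for Dusp7 primed replicate 1 lay inside the naive range. Dusp16 was at 113, 92.4 and 78.4 CPM in young primed LPS cells, against 119 to 156 CPM (median 135) in young naive LPS cells, a fall of 0.54 ± 0.13 (edgeR adjusted p = 0.0142). All 3 primed libraries lay below the naive ones. Dusp3 and Dusp7, which naive LPS had lowered, were thus less low in primed young cells, and Dusp16, which it had raised, was less high.

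Dusp3 passed in all 16 settings tried. Dusp7 passed in 15 of 16, with adjusted p from 0.000532 with DESeq2 to 0.0837 in edgeR with the compared groups fitted alone, where the value was 0.64 and did not pass. Dusp16 passed in 13 of 16, with edgeR adjusted p from 0.0033 to 0.147. It did not pass without young primed LPS replicate 2, at -0.52, without replicate 3, at -0.42, or with the compared groups alone, at -0.44.

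Dusp6 itself did not differ detectably between primed and naive LPS. The log2 difference was -0.12 in aged cells, with a 95% interval of -0.58 to 0.33, and 0.11 in young cells, with an interval of -0.31 to 0.53. In aged cells edgeR called none of the 10 members, where 0.986% of all tested genes passed, against 1 member at an unadjusted p under 0.05 and none by DESeq2. Aged Dusp7 was at 0.35 ± 0.15 and aged Dusp16 at -0.28 ± 0.14, on the same sides as in young cells. The aged minus young difference of these primed against naive values was called for none of the 10 members, where 0.00567% of all tested genes passed, against 1 at an unadjusted p under 0.05 and none by DESeq2. An effect of age on them was therefore not shown. The difference of the LPS effects, primed LPS against day 3 minus naive LPS against control, was called for none of the members in aged cells, where 0.0113% of all tested genes passed, against 2 at an unadjusted p under 0.05 and none by DESeq2. In young cells it was called for Dusp5 and Dusp16, both lower, where 1.01% of all tested genes passed, 0.64% higher and 0.374% lower. For Dusp6 this difference was 0.44 ± 0.26 in young cells and did not pass (edgeR adjusted p = 0.524).

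At 24 h after β-glucan, edgeR called 2 of 10 members in aged cells, both higher, where 5.22% of all tested genes passed, 4.02% higher and 1.21% lower. It called 5 in young cells, 4 higher and 1 lower, where 11.5% of all tested genes passed, 7.79% higher and 3.75% lower, and total-count scaling gave 2 higher and 2 lower there. Dusp4, a nuclear phosphatase, rose at both ages. It was at 83.7, 79.0 and 76.7 CPM in aged 24 h cells, against 36.5, 34.4 and 42.2 CPM in aged control cells (log2 1.08 ± 0.20, edgeR adjusted p = 0.000884). In young cells Dusp4 was at 80.9, 69.6 and 72.0 CPM at 24 h, against 23.6 to 59.0 CPM (median 33.4) in control cells (log2 0.95 ± 0.19, edgeR adjusted p = 0.00081). The groups did not overlap at either age.

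Dusp6 was at 53.0, 105 and 104 CPM in aged 24 h cells, against 119, 140 and 151 CPM in aged control cells. In young cells it was at 58.9, 97.7 and 72.6 CPM at 24 h, against 111 to 173 CPM (median 132) in control cells. Every 24 h library lay below every control library of its age, and replicate 1 was the lowest at both ages. The fall of 0.86 ± 0.19 on the log2 scale passed in young cells (edgeR adjusted p = 0.00281), and the value of -0.64 ± 0.20 in aged cells did not (edgeR adjusted p = 0.0553). Without young 24 h replicate 1 the young value was -0.70 and did not pass, and over 16 settings the adjusted p ran from 3.6e-05 with DESeq2 to that 0.0562 in edgeR. The aged value passed in 6 of 13 settings, with adjusted p from 0.0102 with DESeq2 to 0.378 in edgeR without aged 24 h replicate 1, where the value was -0.38. These comparisons share their controls with the contrast that chose Dusp6.

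Smaller rises passed in young 24 h cells for Dusp2, at 0.87 ± 0.28, Dusp5, at 0.74 ± 0.24, and Dusp3, at 0.25 ± 0.081 on the log2 scale (edgeR adjusted p = 0.0434, 0.032 and 0.0354). Each of these was lost in many settings: Dusp2 passed in 6, Dusp5 in 8 and Dusp3 in 9 of 16. The Dusp2 and Dusp5 sizes depended on the handling of young replicates 4 to 6. With no term for them, Dusp2 was at 0.37 and Dusp5 at 0.54 (edgeR adjusted p = 0.617 and 0.179). With them left out, the values were 0.77 and 0.46 (edgeR adjusted p = 0.0681 and 0.16). In aged 24 h cells the other call was Dusp10, at 2.46, 2.41 and 3.45 CPM, against 1.35, 0.982 and 0.672 CPM in aged control cells. It rose by 1.48 ± 0.41 (edgeR adjusted p = 0.0256) and passed in 8 of 13 settings.

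On day 3 after β-glucan, edgeR called none of the 10 members at either age, where 0.221% of all tested genes passed in aged and 0.782% in young cells. At an unadjusted p under 0.05 there were 4 members in aged and 3 in young cells, and DESeq2 called 1 in aged and none in young cells. Dusp6 stood at -0.29 ± 0.20 in aged and -0.33 ± 0.19 in young cells against control on the log2 scale. Dusp4 stood at 0.76 ± 0.20 in aged and 0.49 ± 0.19 in young cells. Day 3 levels of Dusp4 were 76.2, 54.4 and 60.6 CPM in aged cells, against 36.5, 34.4 and 42.2 CPM in aged control cells, with no overlap. Without young control replicate 5 the young value was 0.62 and passed (edgeR adjusted p = 0.00132), and over 16 settings its adjusted p ran from 0.000712 to 0.702.

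Seen as shares of one pool, the phosphatases changed places. The shares below are of the summed CPM per kilobase of the 9 Dusp genes, averaged over the libraries of a group. Dusp6 held 2.03% of the pool in aged and 2.33% in young primed LPS cells, and 2.07% in aged and 1.57% in young naive LPS cells. In control cells it held 26.7% in aged and 26.6% in young cells. Dusp2 held 39.2% in aged and 39.0% in young primed LPS cells, and 48.3% in aged and 61.5% in young naive LPS cells, against 2.69% and 2.59% in aged and young control cells. At 4 h after β-glucan the largest share was that of Dusp1, the phosphatase of p38 and JNK, with 38.9% in aged and 40.6% in young cells, against 22.5% in aged and 24.7% in young control cells. The pool itself averaged 250 CPM per kilobase in aged and 339 in young naive LPS cells, against 163 in aged and 165 in young control cells. No test was made on shares, which rest on gene model lengths and move together because they sum to the whole.

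**Figure D4:**
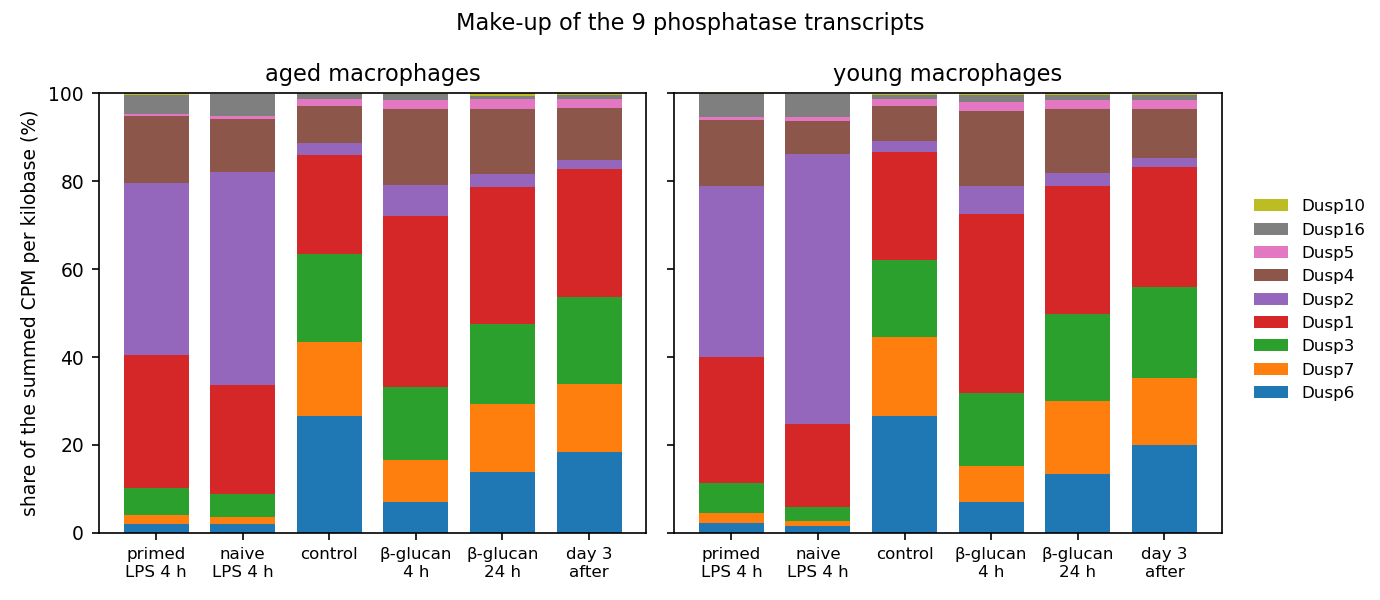
Share of each of the 9 Dusp genes in their summed CPM per kilobase, in percent, stacked for each group, aged and young. Dusp6 holds 26.7% of the pool in aged control cells and 2.07% in aged naive LPS cells, where Dusp2 holds 48.3%.

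No age difference in the Dusp6 level passed the test in any treatment. The aged minus young log2 difference was -0.21 with primed LPS (95% interval -0.66 to 0.25), 0.04 with naive LPS (-0.35 to 0.44), and between -0.01 and 0.19 in control and β-glucan cells. The naive LPS effect on Dusp6 differed between ages by 0.05 ± 0.26, with an interval of -0.48 to 0.58. With naive LPS, edgeR called 2 of 10 members between ages, 1 higher and 1 lower in aged cells, where 0.895% of all tested genes passed, 0.567% higher and 0.329% lower. Dusp3 was at 57.5, 67.1 and 57.8 CPM in aged naive LPS cells, against 42.1 to 54.8 CPM (median 47.6) in young naive LPS cells, higher by 0.35 ± 0.077 on the log2 scale (edgeR adjusted p = 0.0174). Dusp16 was at 97.5, 94.3 and 96.4 CPM in aged naive LPS cells, against 119 to 156 CPM (median 135) in young naive LPS cells, a fall of 0.50 ± 0.12 (edgeR adjusted p = 0.0338).

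Neither group of libraries overlapped with its counterpart, but both calls were lost when young replicates 4 to 6 were left out and when the fit had no term for them. The Dusp3 call was also lost without aged naive LPS replicate 1 or 2. The Dusp16 call was also lost without any 1 of the aged naive LPS replicates and without young naive LPS replicate 1, 4 or 5, so that it passed in 7 of 15 settings and did not pass in 8. The summed stromal markers were 119 to 193 CPM in aged and 47.7 to 162 CPM in young naive LPS libraries, and their part in these differences was not tested. In the other treatments edgeR called no member between ages, where 0.442% of all tested genes passed in control, 0.21% at 4 h, 0.312% at 24 h, 0.068% on day 3 and 0.164% with primed LPS. At an unadjusted p under 0.05 there was 1 member in control and 1 at 4 h and none in the others, and DESeq2 called none. No aged minus young difference of the naive LPS effect was called by edgeR or DESeq2 for any member, where 0% of all tested genes passed, against 3 members at an unadjusted p under 0.05. The same held for the 24 h and day 3 effects of β-glucan, with 0% of all tested genes and none of the members at an unadjusted p under 0.05.

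Around these genes, the rest of the pathway was counted from fixed lists. With naive LPS, 4 of 23 other Ras and Raf brakes were higher and 15 lower in aged cells, with a median log2 change of -0.72, and 3 were higher and 16 lower in young cells, with a median of -0.65. The median of all tested genes was -0.08 in aged and -0.10 in young cells. Of all tested genes, 26.6% were higher and 28.9% lower in aged cells, and 30.3% and 34.7% in young cells. The same shares apply to the other lists with naive LPS below. Rasa3, a GTPase-activating protein of Ras and Rap, fell by 2.59 ± 0.11 in aged and 2.77 ± 0.077 in young cells. The adaptor Dok2, which recruits a Ras GTPase-activating protein, fell by 2.06 ± 0.14 in aged and 1.94 ± 0.099 in young cells. Rasa4, a calcium-responsive relative of Rasa3, rose by 2.43 ± 0.15 in aged and 2.44 ± 0.11 in young cells, and the Sprouty gene Spry1, at 2.1 to 3.46 CPM in naive LPS libraries, rose too. Peak1, which fell too, is a pseudokinase scaffold and no brake by its known role. Spred1 and Rasa4 were thus among the few brakes that rose while most of the list fell.

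Of 20 other phosphatases listed, 15 were tested, and 5 were higher and 8 lower in aged naive LPS cells (median -0.58), 6 higher and 8 lower in young ones (median -0.64). Ptpn7, a tyrosine phosphatase of ERK and p38, fell by 1.84 ± 0.15 in aged and 2.14 ± 0.10 in young cells. Dusp11, which rose by 1.08 ± 0.088 in aged and 1.24 ± 0.062 in young cells, acts on RNA and not on MAP kinases. Among 25 genes from Csf1r to ERK, 10 were higher and 9 lower in aged cells (median -0.01), and 12 higher and 10 lower in young cells (median 0.02). Map2k1, the kinase that phosphorylates ERK, rose by 1.80 ± 0.078 in aged and 1.90 ± 0.056 in young cells, while Mknk2, a kinase below ERK and p38, fell by 3.50 ± 0.17 and 3.51 ± 0.12 at the same ages. Among 24 genes of the JNK and p38 cascades, 6 were higher and 9 lower in aged cells (median 0.04), and 6 higher and 10 lower in young cells (median -0.07). Mapkapk2, a p38 target kinase, rose by 3.61 ± 0.12 in aged and 3.63 ± 0.082 in young cells, and Map3k8, the kinase that couples Tlr4 to ERK, by 2.71 ± 0.14 and 2.72 ± 0.10.

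Genes known as transcriptional output of ERK did not move as one with naive LPS. Of 20, 5 were higher and 11 lower in aged cells (median -0.56), and 6 higher and 11 lower in young cells (median -0.71). The ETS factor Etv5 fell by 1.86 ± 0.11 in aged and 2.08 ± 0.081 in young cells, and the cyclin gene Ccnd1 by 2.48 ± 0.18 and 2.71 ± 0.13 at the same ages. Plaur, the urokinase receptor, rose by 2.86 ± 0.19 in aged and 2.83 ± 0.13 in young cells. Under total-count scaling the lists tilted lower, as the whole table did: the Csf1r to ERK genes were 3 higher and 17 lower in aged cells and 4 higher and 18 lower in young cells, the JNK and p38 genes 4 and 16 and 4 and 18, and the brakes 2 and 18 and 3 and 19. Rasa4, Map2k1, Mapkapk2, Map3k8 and Plaur stayed higher under it.

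Between primed and naive LPS, the list genes that passed in young cells were all higher. Of the 23 brakes 2 were higher, of the 25 Csf1r to ERK genes 3, of the 24 JNK and p38 genes 2 and of the 20 ERK output genes 3, with none lower and none of the 15 phosphatases called. Of all tested genes, 2.44% were higher and 1.17% lower in this comparison. Rasa3 was at 34.9 to 35.1 CPM in young primed LPS libraries and 17.4 to 29.1 CPM in young naive LPS libraries, higher by 0.51 ± 0.097 on the log2 scale (edgeR adjusted p = 0.000906). Mknk2 was higher by 0.66 ± 0.15, Etv5 by 0.52 ± 0.10 and Ccnd1 by 0.74 ± 0.16 (edgeR adjusted p = 0.00743, 0.00164 and 0.00595). Rasa3, Mknk2, Etv5 and Ccnd1 had all fallen with naive LPS, as Dusp7 and Dusp3 had. In aged cells Ccnd1 was the single call over the 5 lists, at 0.69 ± 0.18 (edgeR adjusted p = 0.0441). There 0.986% of all tested genes passed.

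Finally, the genes whose pattern was most like that of Dusp6 over the 12 group means were found by the root mean square difference of centred log2 CPM among 8299 well-expressed genes, of which the median was 1.27. They were Abcg3, an ABC transporter gene, at 0.146, the cofilin phosphatase gene Ssh2 at 0.211, the polyamine oxidase gene Paox at 0.219, the lysosomal transporter gene Slc46a3 at 0.221 and the RING finger gene Rnf150 at 0.255. Abcg3 averaged 11.6 CPM in aged 4 h cells and 3.17 CPM in aged naive LPS cells, against 26.8 CPM in aged control cells. Rnf150 averaged 58.3 CPM in aged 4 h cells and 11.8 CPM in aged naive LPS cells, against 122 CPM in aged control cells. Of the other members, Dusp7 was nearest at 0.371, in place 31 of the 8299, and Dusp2 was far off at 3.37. The likeness is a description over groups that share treatments, and no test was made.

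**Figure D5:**
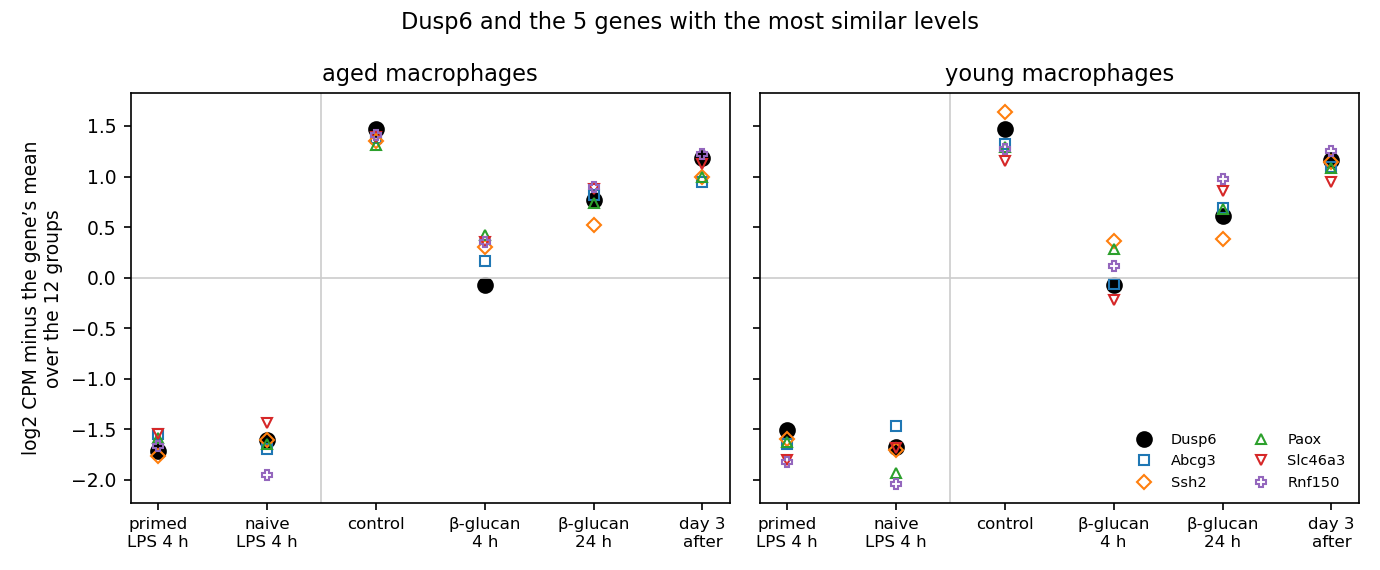
Centred log2 CPM of Dusp6 and of the 5 genes most like it over the 12 group means, aged and young groups in separate panels. The points of the 6 genes lie close together within each group and are lowest in the LPS groups.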

How the data were processed

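Gene counts were deposited as one table of raw read counts over 42 libraries, made by the authors with STAR on the mouse genome mm10, per the submitters' processing notes. The counting program, annotation release and strand setting are not given in the sources used here, so reads of overlapping genes on opposite strands could not be told apart. A deposited FPKM table was not used here. The genes and lists were chosen with earlier results of these data known.

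Counts were analysed with edgeR 4.0.16, limma 3.58.1 and R 4.3.3. Genes were filtered with filterByExpr (minimum count 10), which left 17648 of 54532 genes holding over 99.9% of the counts. TMM scaling and a quasi-likelihood fit over all 12 groups, with a term for young replicates 4 to 6, gave 22 tested comparisons, with p-values adjusted over the whole table by Benjamini-Hochberg and a threshold of 0.05. Age comparisons set the young mean midway between the 2 sets. Standard errors came from the fold change and its F value, or from the Wald error for log2 changes under 0.05 in size. The fit was tested on simulated data. P-values set a difference against the spread between these libraries, estimated over all 12 groups.

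Named genes were all 10 members, up to 3 called genes per list and direction with the smallest adjusted p, and the 5 genes most like Dusp6 by root mean square difference over 12 group means (log2 CPM with a prior count of 2, mean at least 3). Alternatives were total-count scaling, no filter, DESeq2 1.42.0, the replicate number as a block, other handling of young replicates 4 to 6, the compared groups alone, and each library left out. Promoters came from RefSeq (GRCm38.p6).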

Additional observations from a re-analysis of the deposited data

Results flagged for a closer look

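In young control cells, the Dusp4 level of replicate 5, 59.0 CPM, stood far above the other 5 libraries, which had 23.6 to 36.0 CPM. Of 20 gene and group pairs with 6 libraries examined this was the single such gap, and chance gives about 1 in 20. The naive LPS rise of Dusp4 passed with and without this library.

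The LPS effect on Dusp5 differed between primed and naive young cells by -1.37 ± 0.33 on the log2 scale (edgeR adjusted p = 0.0323, 1.01% of all tested genes called). The effect was -1.27 with primed LPS against β-glucan day 3 and 0.10 with naive LPS against control. It was called in 12 of 25 settings and was -0.71 with young replicates 4 to 6 left out, the set in which naive LPS cells held 7.87 to 11.7 CPM. That set has no primed library, and its part in the difference was not tested.

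The LPS effect on Dusp16 differed the same way, by -0.71 ± 0.18 (edgeR adjusted p = 0.0336), with 2.71 for primed and 3.42 for naive young LPS cells. It was called in 13 of 25 settings and was -0.52 and not called with young replicates 4 to 6 left out. In aged cells the difference of LPS effects was called for none of the 10 members by edgeR or DESeq2, with 2 at an unadjusted p under 0.05, where 0.0113% of all tested genes were called.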

How the results depend on the processing

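Of 1490 member values recomputed under the other settings, 1427 kept their call or lack of one, 35 lost the call and 23 gained one. The other 5 changed sign, with a call in the main fit or in the setting. A value called in neither was counted as kept, whatever its sign. With 1 library left out, 2030 of 2100 kept their call or lack of one, 64 lost the call and 6 gained one. For Dusp6, 145 of 149 values and, with 1 library left out, 207 of 210 were kept in this sense. Uncalled Dusp6 values crossed 0 in some comparisons, such as aged primed against naive LPS, from -0.241 to 0.0362. Sign changes with a call came under total-count scaling for Dusp1 (-0.29), Dusp5 (-0.71) and Dusp10 (-0.79) in young naive LPS cells. With the same scaling, Dusp4 changed sign (-0.032) in aged primed LPS against day 3 cells. With young replicates 4 to 6 left out, Dusp5 changed sign (-0.56) in young naive LPS cells. Sign changes of uncalled values are not listed. The last setting removes 3 libraries from 2 groups, and the causes were not tested.

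For aged Dusp6 at 24 h the call was gained at -0.70 with total-count scaling, -0.64 with young replicates 4 to 6 left out, -0.66 with the replicate block and -0.67 with DESeq2. With 1 library left out, the 24 h value of Dusp6 ran from -0.80 to -0.38 in aged and from -1.08 to -0.70 in young cells. The count of members called in young 24 h cells, 5, became 2 with no filter on low counts, 3 with no term for young replicates 4 to 6, 3 with them left out and 1 with the compared groups alone, and ran from 1 to 5 with 1 library left out. In aged 24 h cells, 2 became 1 with the compared groups alone and 1 to 3 with 1 library left out. On day 3, none became 1 in young cells with no term for the set or the set left out, and 0 to 1 with 1 library left out. In aged day 3 cells none became 1 with the set left out, the replicate block, DESeq2 or the compared groups alone. Between primed and naive LPS in young cells, 3 became 6 with no term for the set. For the young difference of LPS effects, 2 became 4 with total-count scaling, 1 with no filter, 0 with the set left out, 0 with the compared groups alone, and 0 to 3 with 1 library left out. Between ages with naive LPS, 2 became 0 with no term for the set, 0 with the set left out, and 0 to 2 with 1 library left out.

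Deviations of libraries with the same replicate number were weakly correlated, from -0.0361 to 0.114 in aged and from -0.0131 to 0.0717 in young cells. In aged cells the mean was 0.0412 for the same number. The mean of -0.0206 for different numbers is tied to that value, because deviations were taken from group means. Yet 39 of 42 libraries correlated best with their own number, among the 3 numbers of their set. Whether a number marks a shared culture or mouse is not stated by the labels and was not tested. The main fit had no replicate block, so a pairing, if real, was left out of it. Apart from the values given, the replicate block moved no count by over 1.5 times, and no paired fit was made between ages, whose cells come from different mice. Depth limits Dusp10 and Dusp5, the least abundant members, most. The lone set of young replicates 4 to 6 limits what its naive LPS values say about priming and age.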
